A study of Mus musculus with 4 samples.

Results

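The genes described here are 35 components of the endoplasmic reticulum (ER) machinery that receives, folds and inspects secreted proteins. They were listed by gene symbol according to the role of the protein, and all 35 were found among the 55291 symbols counted in each library. By the role of the protein they were divided into 11 chaperones and chaperone partners, 8 genes of disulfide bond formation, 7 of ER-associated degradation, 2 stress sensors and 7 of the translocon and signal peptide removal. All 35 passed the filter on low counts, so no member was lost, and the smallest count of a member in a library was 46.

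The study sequenced RNA from mouse pancreas, in 4 libraries. Control mice were Pdx1-Cre+ with the genotype poh1f/+, carrying 1 floxed copy of poh1, and the other mice were Pdx1-Cre+ with poh1f/f, with 2 floxed copies. The latter are called the libraries labelled poh1f/f. Both groups carried Pdx1-Cre, a recombinase expressed from a promoter of pancreatic progenitors, which acts in the acinar, duct and islet lineages and not in the immune, connective tissue and fat cells of the organ. Each group had 2 libraries, and age, sex and strain are not in the labels. Whether each came from its own animal is not stated, so the spread behind each p-value is that between these libraries and may be technical.

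Total counts were 22875618 to 27849730 per library. Levels are given in CPM, counts scaled to a common library size after TMM scaling (a correction for the composition of a library), on which 1 count was worth 0.0342 to 0.0455 CPM. Psmd14, the current symbol of poh1, was at 61.6 and 52.9 CPM in control replicates 1 and 2 and at 65.9 and 65.2 CPM in the libraries labelled poh1f/f. It was thus not lower where the label gives both copies as floxed (log2 fold change 0.20 ± 0.11 SE, edgeR adjusted p = 0.259), so a direction given below is one between labels. Counts over a whole gene do not show whether single exons were lost. Acinar markers, 15 genes that define the main cell of the organ, summed to 13352 and 2851 CPM in the controls and to 235 and 748 CPM in the libraries labelled poh1f/f. The 264 immunoglobulin genes went the other way, with 1339 and 1041 CPM in the controls and 15433 and 7473 CPM in the libraries labelled poh1f/f. Intestinal markers (8 genes) stood at 432 CPM in poh1f/f replicate 2 against 39.9 to 69.3 CPM in the other libraries.

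Secreted proteins enter the ER through the Sec61 channel, lose their signal peptide, and fold with the help of chaperones and of enzymes that form and shuffle disulfide bonds. Proteins that fail to fold are drawn back to the cytosol and destroyed by the proteasome, of which the poh1 protein is a subunit. When unfolded proteins accumulate, the sensors Ern1 (IRE1), Atf6 and Eif2ak3 (PERK) start the unfolded protein response, which raises many of these genes through a promoter element named the ER stress response element (ERSE). Acinar cells, plasma cells and collagen-producing fibroblasts all depend on this machinery because of the amount of protein they secrete. In RNA of a whole tissue, fewer cells of a type and less RNA per cell cannot be told apart.

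The promoters of some of these genes have an element of the stress response in common. RefSeq promoter windows on GRCm38.p6, from 250 bases before to 50 after a listed start, were found for 29 of the 35 genes, and both strands were searched for 3 elements of the stress response. ERSE was searched as CCAAT and CCACG with any 9 bases between them, ERSE-II as ATTGG and CCACG with any 1 base between them, and the unfolded protein response element as TGACGTGG. ERSE stood in the windows of 9 of the 29 genes (31%), against 37 of all 27025 genes with a window (0.137%), so 9 of those 37 were members. ERSE-II stood in 2 of the 29 (6.9%) and in 12 of all genes (0.0444%). The third element was in none of the 29 windows and in 193 of all genes (0.714%). Its last letters can overlap an ERSE read on the other strand, which did not occur in these windows. ERSE and ERSE-II are known from promoters of stress-response genes such as Hspa5 and Herpud1, so these shares are a description and no independent evidence. The matches are shown for the genes described below. Each is written 5′ to 3′ on the strand named, with the fixed letters of the element in capitals.
Hspa5, chr2:34772025-34772043, plus strand: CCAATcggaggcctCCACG
Hsp90b1, chr10:86705638-86705656, minus strand: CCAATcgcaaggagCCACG
Hsp90b1, chr10:86705533-86705551, plus strand: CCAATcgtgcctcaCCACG
Dnajc3, chr14:118937827-118937845, plus strand: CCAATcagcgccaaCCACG
Creld2, chr15:88819520-88819538, minus strand: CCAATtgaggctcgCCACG
Calr, chr8:84847075-84847093, plus strand: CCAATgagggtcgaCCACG
Canx, chr11:50325800-50325818, minus strand: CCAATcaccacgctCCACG
Pdia6, chr12:17266491-17266509, plus strand: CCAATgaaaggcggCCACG
Ero1lb, chr13:12565682-12565700, minus strand: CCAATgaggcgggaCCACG
Syvn1, chr19:6046532-6046550, plus strand: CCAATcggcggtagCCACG
Dnajb11, ERSE-II, chr16:22857852-22857862, plus strand: ATTGGcCCACG
Herpud1, ERSE-II, chr8:94386377-94386387, plus strand: ATTGGgCCACG
The 10 ERSE matches ended between 26 (Syvn1) and 194 (Hsp90b1) bases before the listed start, whereas the match of Dnajb11 lay just after it. A match is a stretch of letters and does not show that a factor binds there.

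Between the genotypes, 3 of the 35 genes fell in the libraries labelled poh1f/f and 0 rose (edgeR quasi-likelihood test, adjusted p under 0.05 over 19134 genes). Of all genes tested 22.1% passed this threshold, 12.1% higher and 9.95% lower, against 8.57% of these 35. The 3 that fell, P4hb, Pdia5 and Pdia2, all encode protein disulfide isomerases. At an unadjusted p under 0.05 there were 7 lower and 1 higher (Syvn1), against 18.4% and 20.0% of all genes. DESeq2 called 6 lower and 1 higher (12.8% and 15.0% of all genes), and limma-voom called 3 lower and 0 higher (9.94% and 11.7%). Both libraries labelled poh1f/f were above both controls for 4 of the 35 and below them for 9, against 34.4% and 33.7% of all genes. The median log2 fold change of the 35 was −0.0254, with quartiles of −0.26 and 0.0943, and that of all genes tested was −0.0018, with quartiles of −0.37 and 0.45. With control replicate 1 left out, edgeR called 0 of the 35 and 5.52% of all genes. With control replicate 2 left out, it called 6 of the 35 and 5.58% of all genes lower.

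**Figure D1:**
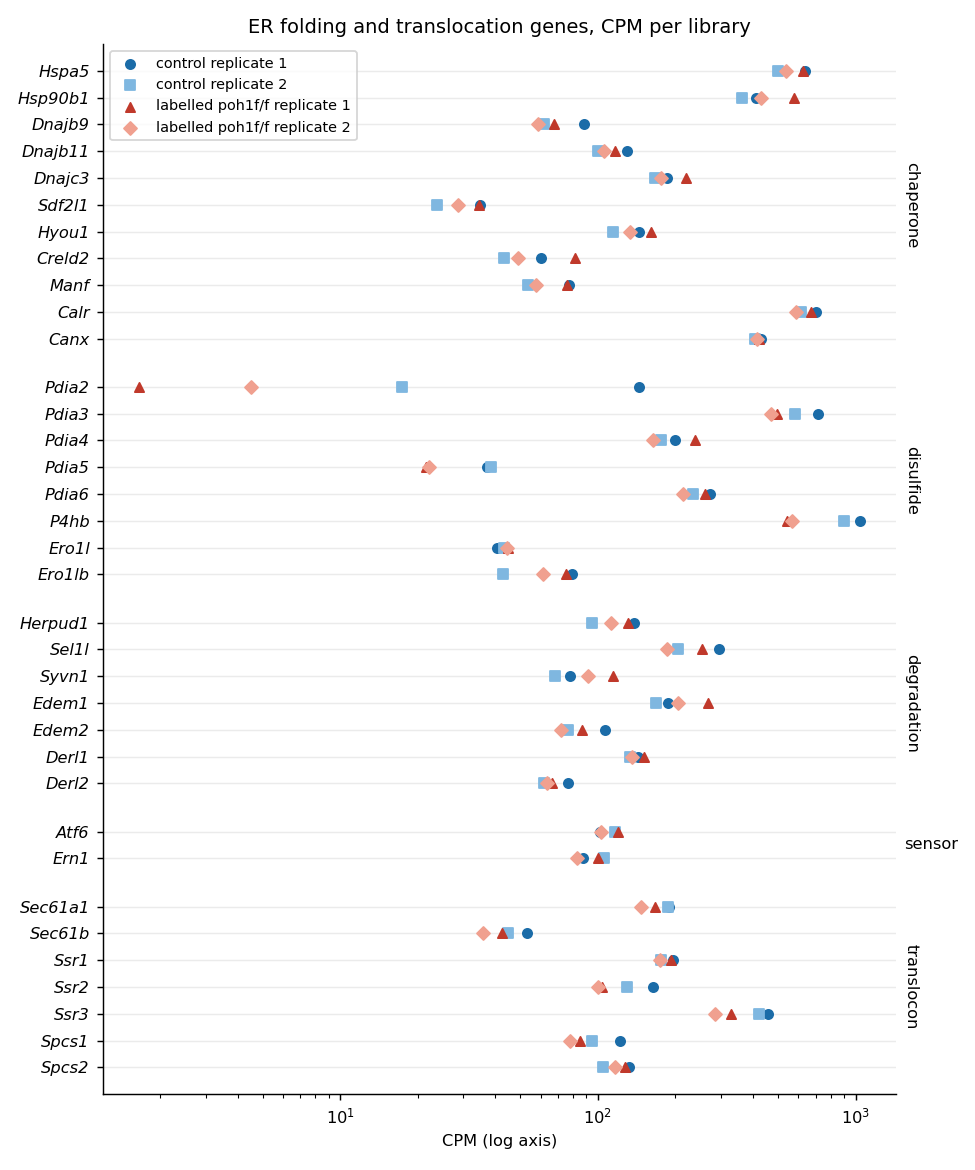
CPM of each of the 35 genes (rows, by class) in each of the 4 libraries on a log axis; circles and squares are control replicates 1 and 2, triangles and diamonds the libraries labelled poh1f/f. Most genes have overlapping groups, and Pdia2, Pdia5 and P4hb lie lower in both libraries labelled poh1f/f than in both controls.

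For most of the 32 genes that did not pass, the data bound the size of a change. The 95% interval of the fold change (not adjusted for the number of genes) lay within 2-fold in either direction for 31 of them, and within 1.5-fold for 15. The exception was Creld2, whose interval reached 1.07 on the log2 scale. Over all 35 genes, called or not, 88.6% had an interval within 2-fold, against 48.9% of all genes tested. Pdia2 was the 1 member with a fitted change of at least 2-fold.

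**Figure D2:**
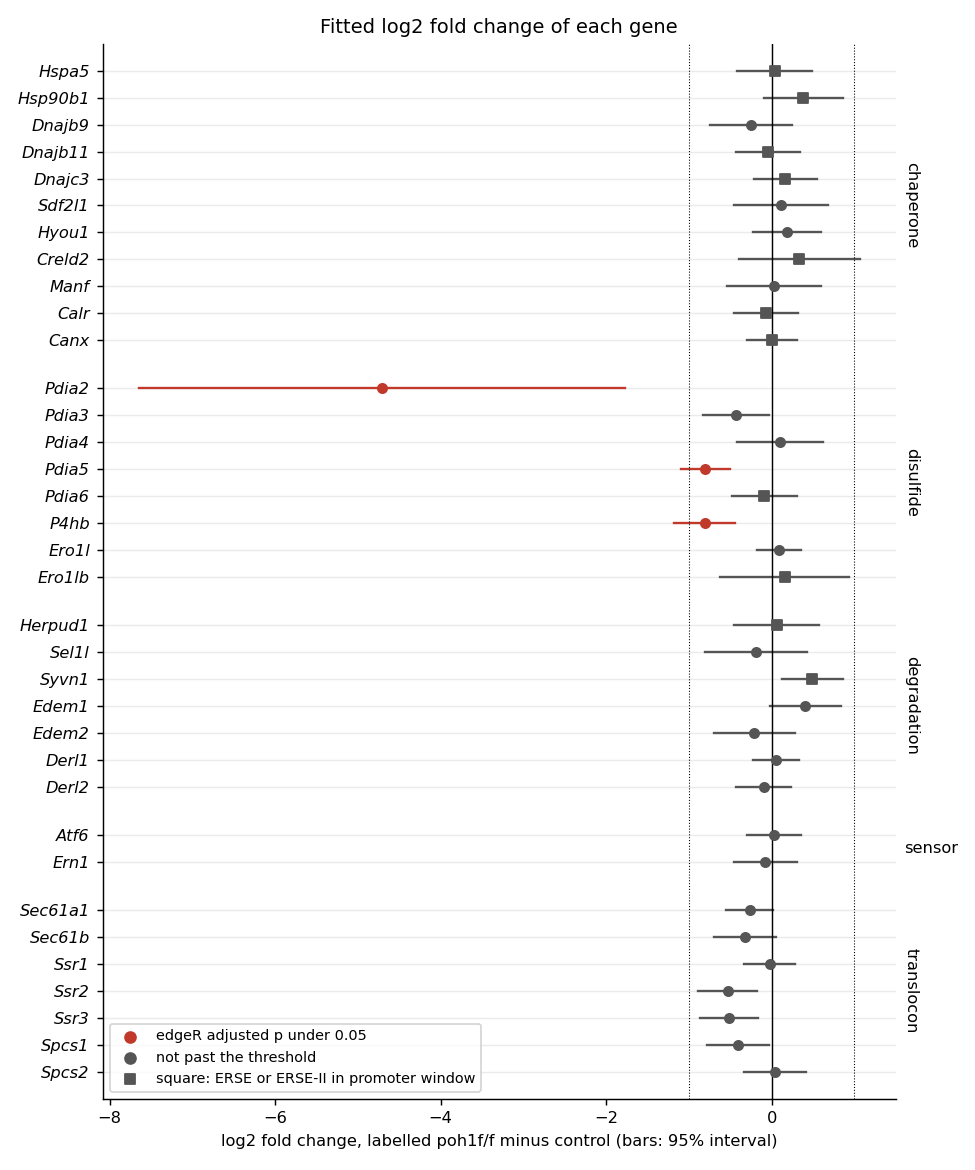
Fitted log2 fold change of each gene, labelled poh1f/f minus control, with bars for the 95% interval and dotted lines at a 2-fold change; red marks an edgeR adjusted p under 0.05, and squares mark genes with ERSE or ERSE-II in the promoter window. The 3 red points are in the disulfide class, and the squares lie between −0.090 and 0.49.

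Chaperones were at similar levels under both labels. None of the 11 passed with edgeR (22.1% of all genes), DESeq2 (15.0% higher and 12.8% lower) or limma-voom (11.7% and 9.94%). At an unadjusted p under 0.05 there were 0, against 20.0% higher and 18.4% lower among all genes. Their median log2 fold change was 0.0354, with a range from −0.25 (Dnajb9) to 0.38 (Hsp90b1). Summed over the class, the level was 2898 and 2446 CPM in control replicates 1 and 2 and 3052 and 2580 CPM in poh1f/f replicates 1 and 2, so that the groups interleaved.

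Hspa5 (BiP; GRCm38 chromosome 2, 34771970 to 34777547) is the ER member of the Hsp70 family, which binds unfolded chains and keeps the stress sensors silent. It stood at 635 and 500.0 CPM in the controls and at 625 and 539 CPM in the libraries labelled poh1f/f. Both libraries labelled poh1f/f lay between the controls, with a log2 fold change of 0.0354 ± 0.18 SE and a 95% interval from −0.41 to 0.48 (edgeR adjusted p = 0.906). Hsp90b1 (GRP94), the Hsp90 of the ER, was at 411 and 362 CPM in the controls and at 578 and 429 CPM in the libraries labelled poh1f/f. Both of the latter were above both controls, yet the difference of 0.38 ± 0.19 SE did not pass (edgeR adjusted p = 0.201).

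Calr and Canx, calreticulin and calnexin, are the lectin chaperones that hold glycoproteins while they fold. Calr was at 705 and 613 CPM in the controls and at 671 and 589 CPM in the libraries labelled poh1f/f (log2 fold change −0.0649 ± 0.15 SE, edgeR adjusted p = 0.789). Canx varied least of the class, with 428, 407, 423 and 415 CPM in the same order and a log2 fold change of 0.00404 ± 0.12 SE (edgeR adjusted p = 0.985). The partners of BiP did not pass: Dnajb9, Dnajb11 and Dnajc3, co-chaperones with a J domain, had log2 fold changes of −0.25, −0.0464 and 0.16, and Hyou1, which exchanges the nucleotide of BiP, had 0.19. Sdf2l1 (0.11), Manf (0.0286) and Creld2 (0.33), all small ER proteins induced by stress, did not pass either. Of the chaperone class, Creld2 spread most within the libraries labelled poh1f/f, at 81.7 and 48.8 CPM against 60.1 and 43.4 CPM in the controls. With poh1f/f replicate 2 left out, its log2 fold change was 0.66 and it was called higher (edgeR adjusted p = 0.0398).

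Disulfide enzymes held all 3 calls. The 8 genes of the class summed to 2530 and 2040 CPM in the controls and to 1682 and 1543 CPM in the libraries labelled poh1f/f, and their median log2 fold change was −0.26. P4hb (chromosome 11, 120560298 to 120573253) encodes PDI itself, which also serves as the beta subunit of the collagen prolyl 4-hydroxylases. It was at 1041 and 904 CPM in the controls and at 544 and 565 CPM in the libraries labelled poh1f/f. Both of the latter lay below both controls, and P4hb fell by 0.81 ± 0.14 SE on the log2 scale, to a level 1.75-fold lower (edgeR adjusted p = 0.0205). The P4hb change was −0.70 to −0.91 on the log2 scale when single libraries were left out. It no longer passed when control replicate 1 (edgeR adjusted p = 0.0534), poh1f/f replicate 1 (0.061) or poh1f/f replicate 2 (0.0567) was the library left out.

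Per kilobase of exon, P4hb was the highest of the 35 genes in the controls, at 340.0 CPM per kb, ahead of Calr at 229 and Pdia3 at 207. In the libraries labelled poh1f/f Calr came first at 219 CPM per kb, ahead of P4hb at 194 and Pdia3 at 154, and Hspa5 ranked 4 under both labels. The lowest was Ero1l in the controls, at 7.92 CPM per kb, and Pdia2 in the libraries labelled poh1f/f, at 1.78 CPM per kb.

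Pdia5 (chromosome 16, 35397312 to 35490873), a less abundant isomerase of the same family, was at 37.2 and 38.4 CPM in the controls and at 21.4 and 22.01 CPM in the libraries labelled poh1f/f. The replicates agree closely within each group, and Pdia5 fell by 0.80 ± 0.12 SE, a 1.74-fold difference (edgeR adjusted p = 0.0129). With control replicate 1 left out, the difference was −0.82 and did not pass (edgeR adjusted p = 0.0577).

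Pdia2 (chromosome 17, 26195999 to 26199087) is the isomerase of pancreatic acinar cells. It was at 144 and 17.4 CPM in control replicates 1 and 2, and at 1.65 and 4.48 CPM in poh1f/f replicates 1 and 2. The controls thus differed from each other by 3.05 on the log2 scale, and both libraries labelled poh1f/f were below the lower control. Pdia2 fell by 4.71 ± 1.15 SE on the log2 scale (95% interval −7.65 to −1.77, edgeR adjusted p = 0.0441). With control replicate 1 left out, the log2 fold change was −2.49 and did not pass (edgeR adjusted p = 0.126), and limma-voom did not call it (adjusted p = 0.162). The acinar markers had the same order of libraries, from control replicate 1 down to control replicate 2, poh1f/f replicate 2 and poh1f/f replicate 1. So did the 9 duct markers, which summed to 2294, 1875, 632 and 504 CPM in that order. Of the 15 acinar markers 12 fell (9.95% of all genes), with a median log2 fold change of −4.39. With limma-voom 6 were called lower (9.94% of all genes). Cpa1, the enzyme carboxypeptidase A1, was at 1527, 329, 20.3 and 75.7 CPM in control replicates 1 and 2 and poh1f/f replicates 1 and 2. Its edgeR adjusted p was 0.0399 with all libraries, 0.149 with control replicate 1 left out and 0.0555 with control replicate 2 left out. The part of acinar or duct RNA in the Pdia2 difference was not tested.

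The other 5 disulfide genes did not pass. Pdia3 (ERp57), the isomerase that works with calnexin and calreticulin, was at 717 and 584 CPM in the controls and at 497 and 468 CPM in the libraries labelled poh1f/f. The groups did not overlap, and the log2 fold change was −0.43 ± 0.16 SE (edgeR adjusted p = 0.11). DESeq2 called Pdia3 lower (adjusted p = 0.0287), as did edgeR with control replicate 2 left out (adjusted p = 0.0496). Pdia4 (0.10) and Pdia6 (−0.09), further isomerases with thioredoxin domains, had overlapping groups. The oxidases that recharge the isomerases, Ero1l and Ero1lb, had log2 fold changes of 0.0906 and 0.16. Ero1l was nearly level, from 40.7 to 44.7 CPM over the 4 libraries, whereas Ero1lb was at 79.6 and 42.8 CPM in the controls and at 75.3 and 61.1 CPM in the libraries labelled poh1f/f.

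The promoters of the 3 genes that fell held none of the 3 elements. The 250 bases before their listed starts are shown beside those of Syvn1, the gene with the highest log2 fold change of the 35. They are written 5′ to 3′ on the strand of the gene, with capitals for the fixed letters of ERSE and lower case elsewhere.
P4hb, chr11:120573254-120573503, minus strand: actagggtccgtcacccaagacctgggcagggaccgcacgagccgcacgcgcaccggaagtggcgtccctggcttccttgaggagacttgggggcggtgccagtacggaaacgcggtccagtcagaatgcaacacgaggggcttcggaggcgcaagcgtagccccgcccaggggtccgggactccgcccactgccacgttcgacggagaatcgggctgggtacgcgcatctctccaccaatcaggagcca
Pdia5, chr16:35490874-35491123, minus strand: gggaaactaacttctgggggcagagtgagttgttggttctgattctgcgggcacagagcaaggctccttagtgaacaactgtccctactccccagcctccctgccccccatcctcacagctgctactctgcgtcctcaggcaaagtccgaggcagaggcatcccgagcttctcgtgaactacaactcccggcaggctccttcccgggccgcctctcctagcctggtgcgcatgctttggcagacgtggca
Pdia2, chr17:26199088-26199337, minus strand: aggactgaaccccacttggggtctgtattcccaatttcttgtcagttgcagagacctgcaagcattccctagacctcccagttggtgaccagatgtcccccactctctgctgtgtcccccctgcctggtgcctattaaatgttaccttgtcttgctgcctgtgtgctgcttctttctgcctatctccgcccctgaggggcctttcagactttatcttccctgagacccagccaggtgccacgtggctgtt
Syvn1, chr19:6046326-6046575, plus strand: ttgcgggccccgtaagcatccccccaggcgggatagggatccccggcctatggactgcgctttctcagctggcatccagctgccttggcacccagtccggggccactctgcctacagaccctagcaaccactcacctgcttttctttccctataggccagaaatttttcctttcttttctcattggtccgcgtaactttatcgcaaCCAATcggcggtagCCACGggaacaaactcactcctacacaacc
The 11 genes with ERSE or ERSE-II had a median log2 fold change of 0.0634. Of them 0 passed with edgeR (22.1% of all genes) or limma-voom (11.7% higher and 9.94% lower), while DESeq2 called Syvn1 higher (15.0%). The 18 genes whose windows held none had a median of −0.20, and 3 of them fell, against 9.95% of all genes. These are descriptions of 2 subsets, and the difference between them was not tested.

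Degradation genes did not pass in any of 7 cases with edgeR (22.1% of all genes) or limma-voom (11.7% higher and 9.94% lower). DESeq2 called 1 of them higher (15.0%). Their median log2 fold change was 0.052. The highest was Syvn1 (HRD1; chromosome 19, 6046576 to 6053712), the ubiquitin ligase of ER-associated degradation. It was at 78.0 and 68.0 CPM in the controls and at 114 and 91.4 CPM in the libraries labelled poh1f/f. Both of the latter were above both controls, with a log2 fold change of 0.49 ± 0.15 SE (edgeR adjusted p = 0.0698). DESeq2 called it higher (adjusted p = 0.0268), as did edgeR with library totals in place of TMM (0.0369) and with poh1f/f replicate 2 (0.032) left out.

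Edem1, a lectin that hands misfolded glycoproteins to the ligase, was at 188 and 168 CPM in the controls and at 268 and 204 CPM in the libraries labelled poh1f/f. The groups did not overlap, and its log2 fold change of 0.41 ± 0.17 SE did not pass (edgeR adjusted p = 0.145). Its relative Edem2 had a log2 fold change of −0.21 and the scaffold of the ligase, Sel1l, one of −0.19, both with overlapping groups. Sel1l was at 296 and 205 CPM in the controls and at 253 and 185 CPM in the libraries labelled poh1f/f, a spread within each label larger than the difference between labels. Herpud1, which is induced by stress and bound to the ligase, and the membrane proteins Derl1 and Derl2 had log2 fold changes of 0.0634, 0.052 and −0.0941.

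The sensors Atf6 and Ern1 did not differ beyond the spread between libraries. Atf6, a membrane-bound transcription factor released by proteolysis, was at 102 and 117 CPM in the controls and at 120.0 and 103 CPM in the libraries labelled poh1f/f. Ern1, the kinase and ribonuclease that splices Xbp1 RNA, was at 87.5 and 106 CPM in the controls and at 100.2 and 83.1 CPM in the libraries labelled poh1f/f. Their log2 fold changes were 0.0268 ± 0.13 and −0.0755 ± 0.15 SE (edgeR adjusted p = 0.903 and 0.745). Counts per gene do not show the splicing of Xbp1 or the activity of a sensor.

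Translocon genes had a median log2 fold change of −0.32, and 0 of 7 passed with edgeR (22.1% of all genes). DESeq2 called 2 lower (12.8% of all genes) and limma-voom 1 (9.94%). In 5 of the 7 both libraries labelled poh1f/f were below both controls, against 33.7% of all genes tested. The class summed to 1315 and 1159 CPM in the controls and to 1045 and 939 CPM in the libraries labelled poh1f/f. Ssr3, a subunit of the translocon-associated protein complex that sits beside the channel, was at 457 and 421 CPM in the controls and at 329 and 286 CPM in the libraries labelled poh1f/f. Its log2 fold change was −0.52 ± 0.14 SE, just short of the threshold (edgeR adjusted p = 0.0537), and limma-voom (adjusted p = 0.0427) and DESeq2 (0.00223) called it lower.

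Ssr2, another subunit of that complex, was at 164 and 130.2 CPM in the controls and at 104 and 99.8 CPM in the libraries labelled poh1f/f (log2 fold change −0.53 ± 0.14 SE, edgeR adjusted p = 0.0531). DESeq2 called it lower (adjusted p = 0.0119), as did edgeR with control replicate 2 (0.0313) left out. Ssr1, of the same complex, was level at 196, 176, 191 and 175 CPM in control replicates 1 and 2 and poh1f/f replicates 1 and 2. The channel subunits Sec61a1 and Sec61b had log2 fold changes of −0.27 and −0.32 and groups that did not overlap (edgeR adjusted p = 0.15 and 0.179). Of the signal peptidase subunits, Spcs1 had −0.41 (edgeR adjusted p = 0.107, and 0.0451 with control replicate 2 left out) and Spcs2 had 0.0457.

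Within each label, the 35 genes tended to be high or low together. In control replicate 1, 31 of the 35 were above control replicate 2, against 50.3% of all genes tested, with a median log2 ratio of 0.25 against 0.00 in all genes. In poh1f/f replicate 1, 32 of the 35 were above poh1f/f replicate 2, against 52.7% of all genes, with a median log2 ratio of 0.21 against 0.01. All 11 chaperones, all 7 degradation genes and all 7 translocon genes followed this order under both labels, whereas Atf6 and Ern1 were lower in control replicate 1 than in control replicate 2. The order was not particular to the 35. In controls and libraries labelled poh1f/f, replicate 1 was higher for 16 and 14 of 17 translocon partners described below. It was higher for 14 and 16 of 17 glycan genes and 9 and 10 of 12 disulfide partners. For 17 cytosolic and mitochondrial chaperones the counts were 15 and 8, and for 13 collagen-serving genes 3 and 13. For 21 of the 35 genes the log2 ratio between the 2 controls was larger than the difference between the labels. The same was not counted over all genes, so this number describes the 35 without a comparison. Acinar markers were higher in control replicate 1 than in control replicate 2, and lower in poh1f/f replicate 1 than in poh1f/f replicate 2. Immunoglobulin genes were higher in replicate 1 under both labels. The plasma cell list of 11 genes summed to 730 and 734 CPM in the controls, where 8 of the 11 were higher in replicate 1 (median log2 ratio 0.40), and to 1860 and 1126 CPM in the libraries labelled poh1f/f. The part of these cell types in the order of the libraries was not tested.

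**Figure D3:**
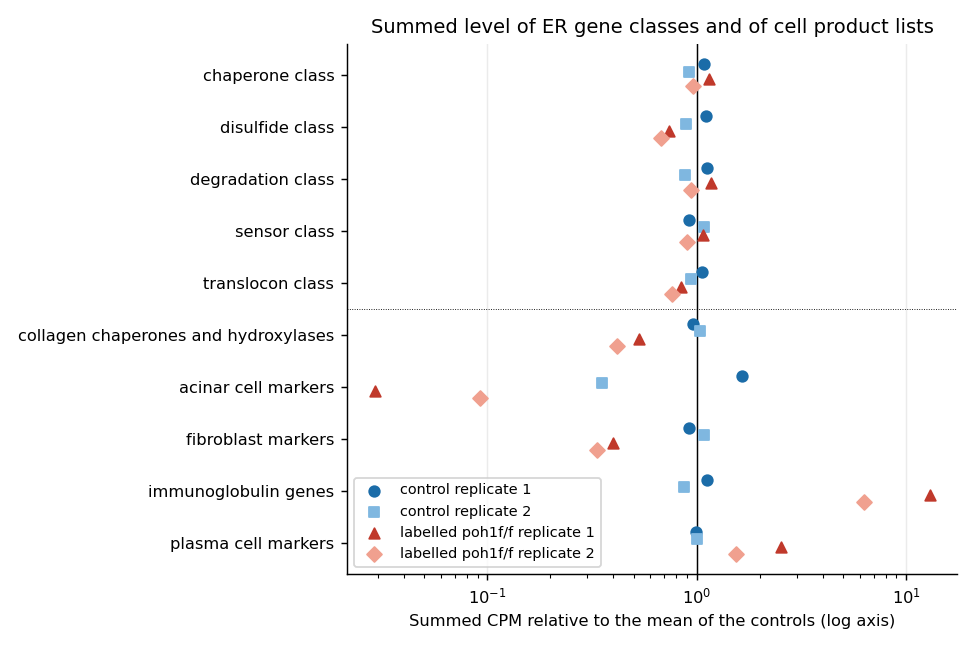
Summed CPM of the 5 ER gene classes and of lists of cell products, each divided by the mean of the 2 controls, on a log axis, with 1 symbol per library. The chaperone, degradation and sensor classes stay near 1, while acinar markers fall to 235 and 748 CPM and immunoglobulin genes reach 15433 and 7473 CPM in the libraries labelled poh1f/f.

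Other genes of the secretory pathway were followed in 7 lists of textbook partners. ER genes that serve collagen had the highest share of calls: 11 of 13 fell and 0 rose (edgeR), against 9.95% and 12.1% of all genes. At an unadjusted p under 0.05, 0 were higher (20.0% of all genes), and likewise 0 with DESeq2 (15.0%) and limma-voom (11.7%). Their median log2 fold change was −1.02 and all 13 had both libraries labelled poh1f/f below both controls (33.7% of all genes). Fkbp10, a prolyl isomerase of procollagen, was at 131 and 150.0 CPM in the controls and at 55.8 and 49.1 CPM in the libraries labelled poh1f/f (log2 fold change −1.42 ± 0.12 SE, edgeR adjusted p = 0.00423). P3h3, of the prolyl 3-hydroxylase family, was at 104 and 110.3 CPM in the controls and at 57.9 and 49.0 CPM in the libraries labelled poh1f/f (edgeR adjusted p = 0.00807). P4ha1, P4ha2 and P4ha3, the catalytic subunits that pair with P4hb, had log2 fold changes of −0.46, −1.05 and −2.53 and edgeR adjusted p-values of 0.0664, 0.0209 and 0.0136. These 3 and P4hb were chosen for mention by their roles, after their values were seen.

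Beside P4hb and its partners, fibroblast markers moved the same way between the labels. Within each label P4hb went the other way: 1041 and 904 CPM in controls, 544 and 565 CPM in libraries labelled poh1f/f. For P4hb the order of the 4 libraries was that of the acinar markers and equally of the duct markers. How many of all genes share this order was not counted. The 9 fibroblast markers summed to 27975 and 33025 CPM in the controls and to 12148 and 10200 CPM in the libraries labelled poh1f/f. Of these 9, 6 fell (9.95% of all genes). Their median log2 fold change was −1.29, with a range from −2.08 to −0.13. Col1a1, a chain of type I collagen, was at 6999 and 7806 CPM in the controls and at 1935 and 1572 CPM in the libraries labelled poh1f/f (log2 fold change −2.08 ± 0.20 SE, edgeR adjusted p = 0.00556). The part of fibroblast, acinar or duct RNA in the P4hb difference was not tested. With control replicate 1 left out, 5 collagen-serving genes were lower (2.08% of all genes), and with control replicate 2 left out, 6 were (5.58%).

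Disulfide and redox partners outside the 35 fell in 4 of 12 cases and rose in 1, against 9.95% and 12.1% of all genes, with a median log2 fold change of −0.25. Qsox1, a secreted sulfhydryl oxidase, fell by 0.88 ± 0.12 SE and Prdx4, the peroxiredoxin of the ER, by 0.70 ± 0.15 SE (edgeR adjusted p = 0.0122 and 0.0304). Txndc11, a thioredoxin-domain protein, rose by 0.72 ± 0.17 SE (edgeR adjusted p = 0.0384). The lower calls in this list numbered 1 with control replicate 1 left out (2.08% of all genes lower) and 2 with poh1f/f replicate 2 left out (7.65%). Prdx4 was not called with control replicate 1 left out (edgeR adjusted p = 0.0843). Txndc11 was not called with control replicate 1, control replicate 2 or poh1f/f replicate 1 left out (edgeR adjusted p = 0.151, 0.134 and 0.119).

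Further translocon and signal peptide partners did not pass in any of 17 cases with edgeR (22.1% of all genes) or limma-voom (11.7% higher and 9.94% lower). DESeq2 called 1 higher (15.0%) and 2 lower (12.8%). At an unadjusted p under 0.05, 1 was higher (20.0%) and 2 were lower (18.4%), and the median log2 fold change was −0.21. With control replicate 2 left out 3 were called lower (5.58% of all genes), and with poh1f/f replicate 2 left out 1 was called higher (10.2%). The list for oligosaccharyl transfer and glycan trimming, which also held a cargo receptor partner, had a median of −0.14. Of its 17 genes 2 fell and 0 rose, against 9.95% lower and 12.1% higher among all genes. The 2 were Tusc3, an oxidoreductase subunit of the transferase (−0.83 ± 0.14 SE, edgeR adjusted p = 0.0194), and Mcfd2, a partner of the cargo receptor Lman1 (−0.56 ± 0.12 SE, edgeR adjusted p = 0.0308). At an unadjusted p under 0.05, 1 gene of this list was higher, against 20.0% of all genes. Both calls were lost with control replicate 1 left out (edgeR adjusted p = 0.0841 and 0.0819), that of Mcfd2 also with poh1f/f replicate 1 (0.0716) or poh1f/f replicate 2 (0.181) left out, and with control replicate 2 left out the list had 5 lower (5.58% of all genes). Other degradation partners fell in 1 of 18 cases (9.95% of all genes), Erlec1, an ER lectin (−0.56 ± 0.13 SE, edgeR adjusted p = 0.0384). It was not called with control replicate 1, control replicate 2 or poh1f/f replicate 2 left out (edgeR adjusted p = 0.136, 0.0597 and 0.162).

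Stress sensors and response factors outside the 35 fell in 3 of 21 cases (9.95% of all genes) and rose in 0 (12.1%). In this list 3 were higher at an unadjusted p under 0.05 (20.0% of all genes), 2 were higher with DESeq2 (15.0%) and 0 with limma-voom (11.7%). Eif2ak3, the sensor PERK that slows translation, was at 113 and 107 CPM in the controls and at 62.3 and 62.2 CPM in the libraries labelled poh1f/f. The replicates lay close together under each label, and Eif2ak3 fell by 0.82 ± 0.09 SE (edgeR adjusted p = 0.00713). It passed the threshold whichever single library was left out (edgeR adjusted p from 0.00991 to 0.0402). Creb3l1, a membrane-bound transcription factor of secretory and matrix-producing cells, fell by 1.33 ± 0.235 SE (edgeR adjusted p = 0.0201), a call lost with control replicate 1 (0.0964) or control replicate 2 (0.0876) left out. The third of the list was Atf3, a stress-induced transcription factor (log2 fold change −0.77, edgeR adjusted p = 0.0477), named because the count was small. With control replicate 1 left out, 1 of the list was called lower (2.08% of all genes).

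Xbp1, Atf4 and Ddit3, transcription factors downstream of the sensors, did not pass with edgeR. Xbp1, the product of Ern1 splicing, was at 334 and 276 CPM in the controls and at 318 and 254 CPM in the libraries labelled poh1f/f (log2 fold change −0.0921 ± 0.17 SE, edgeR adjusted p = 0.733). Atf4, translated when PERK is active, was at 213 and 153 CPM in the controls and at 162 and 155 CPM in the libraries labelled poh1f/f (edgeR adjusted p = 0.448). Ddit3 (CHOP), a factor of prolonged stress, was at 31.2 and 23.6 CPM in the controls and at 19.3 and 16.7 CPM in the libraries labelled poh1f/f. Its groups did not overlap, with a log2 fold change of −0.61 ± 0.19 SE (edgeR adjusted p = 0.0761; DESeq2 adjusted p = 0.0427).

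Chaperones of the cytosol and mitochondria gave a comparison outside the ER. Of 17 tested, 1 rose and 1 fell (12.1% and 9.95% of all genes), with a median log2 fold change of −0.17. Hspd1, the mitochondrial chaperonin, rose by 0.59 ± 0.12 SE and Bag3, a partner of cytosolic Hsp70, fell by 0.75 ± 0.10 SE (edgeR adjusted p = 0.0298 and 0.0101). The call of Hspd1 was lost whichever library was left out (edgeR adjusted p from 0.0506 to 0.152), and that of Bag3 with control replicate 1 (0.0525) left out.

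**Figure D4:**
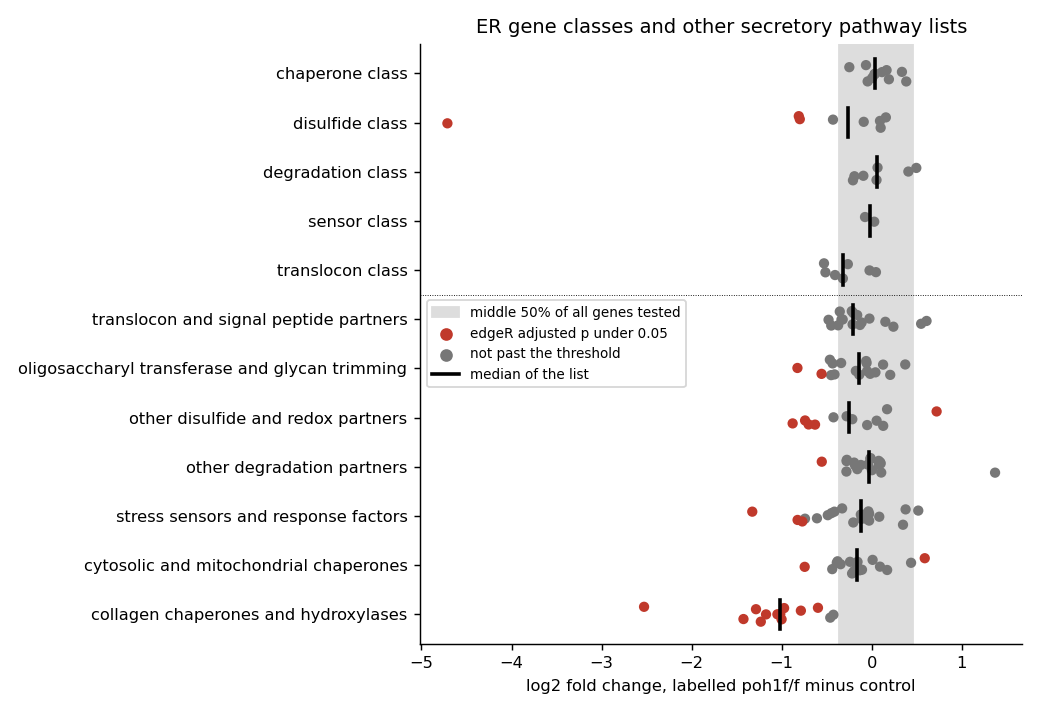
Log2 fold change, labelled poh1f/f minus control, of every gene in the 5 ER classes and the 7 partner lists, with a black bar at each median and grey shading over the middle 50% of all genes tested; red marks an edgeR adjusted p under 0.05. The collagen list lies to the left of the shading with a median of −1.02, and the other medians lie between −0.32 and 0.052.

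Some of the 35 genes share exon bases with a neighbouring gene, and whether the counting used strand is not stated in the labels. In GENCODE M21, exons of Hsp90b1 share 415 bases with 1810014B01Rik, those of Spcs1 share 252 with Glt8d1, those of Derl2 share 231 with Mis12, those of Manf share 146 with Dcaf1, and those of Syvn1 share 91 with Mrpl49, each on the opposite strand. Reads from the shared stretches cannot be assigned with certainty, so the values of these 5 genes are less certain. Other overlaps included 166 bases of Manf with 4930524O07Rik, 50 of Pdia6 with Atp6v1c2 and 18 of Pdia3 with Catsper2, on the opposite strand. On the same strand, Hsp90b1 shared 84 with Gm15344 and Manf 14 with Rbm15b. Sec61a1 shares 549 bases with Gm44170, which had 0 counts in every library. With the counting rule unknown, this does not show that no Sec61a1 reads were lost there.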

How the data were processed

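The authors deposited whole-number counts for each gene symbol in 1 file per library; nothing in the file headers or values points to a scaling. The submitters' processing notes name GRCm38 and, with no role or order, featureCounts 2.0.1, STAR 2.7.6a, SAMtools 1.7, Trim Galore 0.6.6 and FastQC 0.11.9. The strand setting, the annotation and the rule for multiply aligned reads are not given in those notes. Groups came from the sample titles.

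A single edgeR 4.0.16 model (R 4.3.3) held all 4 libraries, with filterByExpr (19134 genes kept), TMM factors and genotype alone as a term. Its quasi-likelihood F test was adjusted by the Benjamini-Hochberg method over all genes at 0.05. The SE was taken as the absolute log2 fold change over the root of F. CPM are counts over the TMM-adjusted sum of tested genes. The step was also run on simulated counts drawn with the same spread for every gene. That setting is simpler than these data and does not measure error rates here. GENCODE M21 gave coordinates and exon lengths (union of exons), and RefSeq the promoter windows. Alternatives were DESeq2 1.42.0, limma-voom (limma 3.58.1), other scalings and filters, a replicate block, and leaving out each library. Members, lists and tests were chosen with earlier results of these data known. Named genes were all 35 members, Psmd14, Xbp1, Eif2ak3, Atf4, Ddit3, Cpa1, Jchain and Col1a1, and of each partner list up to 2 called genes with the smallest p in each direction. Marker lists were also summed for B cells, T cells, adipocytes, islets, ducts and macrophages. They went from 75.4 to 1341, 34.0 to 475, 643 to 3681, 1473 to 308, 2084 to 568 and 6985 to 4458 CPM (mean of controls to mean of libraries labelled poh1f/f).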

Additional observations from a re-analysis of the deposited data

How the results depend on the processing

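Of the 35 ER genes, P4hb, Pdia5 and Pdia2 were the 3 called lower with DESeq2 size factors, upper quartile factors or library totals. The same 3 were called with TMM without secretory and lymphocyte genes and with no low-count filter. A filter on mean CPM of at least 1 gave 2 lower. With limma-voom the 3 were P4hb, Pdia5 and Ssr3 (9.94% of all genes lower), and the DESeq2 test gave 6 (12.8%). The count called higher was 1 with library totals and 1 with the DESeq2 test. Leaving out 1 library at a time gave 0 to 6 lower, 0 to 2 higher, a median log2 fold change of −0.18 to 0.056, and 5 to 11 collagen-serving genes lower. With the replicate number as a block, 1 of the 35 was lower (Pdia5; P4hb adjusted p = 0.0501, Pdia2 0.0698), and the cause was not tested. Deviations of same-numbered libraries correlated at 0.0282, so the numbers were not taken as pairs. Where it is given above, the share of all genes called lower was also smaller with a library left out than with all libraries. The counts with a library left out thus do not by themselves show a change particular to the ER or collagen-serving genes. For the mean CPM filter, the replicate block and poh1f/f replicate 1 left out, the counts were not compared with the share of all genes.

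With library totals the all genes tested median log2 fold change was 0.0969, and Dnajb11 (0.0516), Calr (0.0322), Pdia6 (0.00644), Derl2 (0.00438), Ern1 (0.0199), Ssr1 (0.0721) and Xbp1 (0.00406) turned from below to above 0. Leaving out single libraries turned the sign of genes near 0, none of them called in the fit of all 4 libraries. Their ranges were −0.13 to 0.22 for Hspa5, −0.49 to 0.0353 for Dnajb9, −0.22 to 0.15 for Dnajb11, −0.00694 to 0.31 for Dnajc3, −0.14 to 0.42 for Sdf2l1, −0.0892 to 0.66 for Creld2, −0.21 to 0.31 for Manf, −0.17 to 0.0406 for Calr, −0.0313 to 0.0428 for Canx, −0.20 to 0.34 for Pdia4 and −0.24 to 0.0449 for Pdia6. They were −0.22 to 0.67 for Ero1lb, −0.18 to 0.36 for Herpud1, −0.44 to 0.0968 for Sel1l, −0.43 to 0.050 for Edem2, −0.0324 to 0.13 for Derl1, −0.24 to 0.0701 for Derl2, −0.0931 to 0.14 for Atf6, −0.22 to 0.0667 for Ern1, −0.10 to 0.0565 for Ssr1, −0.12 to 0.23 for Spcs2, −0.27 to 0.0618 for Xbp1 and −0.42 to 0.0546 for Atf4. With 2 libraries per label the precision is limited by the spread between libraries, not by depth. Where 1 library of a label was left out, the other was assumed to vary like those of the other label.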

Other observations

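Some genes of the plasma cell list encode ER proteins themselves. The values of 5 genes of the list follow as a description, since all but Jchain were picked after their values were seen. Jchain, the joining chain of secreted antibody, was at 72.2 and 54.5 CPM in the controls and at 924 and 508 CPM in the libraries labelled poh1f/f (log2 fold change 3.50 ± 0.35 SE, edgeR adjusted p = 0.00575; 0.055 leaving out control replicate 1). Mzb1, an ER co-chaperone of antibody-secreting cells, was at 1.27 and 0.962 CPM in the controls and at 17.2 and 5.51 CPM in the libraries labelled poh1f/f (edgeR adjusted p = 0.0232). Txndc5, an isomerase abundant in plasma cells, was at 286 and 300.0 CPM in the controls and at 399 and 240.2 CPM in the libraries labelled poh1f/f (edgeR adjusted p = 0.753). Derl3, a tissue-restricted relative of Derl1 and Derl2, was at 13.7 and 3.81 CPM in the controls and at 33.2 and 12.0 CPM in the libraries labelled poh1f/f (edgeR adjusted p = 0.235). Fkbp11, a prolyl isomerase of secretory cells, was at 26.6 and 10.9 CPM in the controls and at 10.8 and 5.34 CPM in the libraries labelled poh1f/f (edgeR adjusted p = 0.162). Txndc5 and Derl3 are also on the disulfide and degradation partner lists.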
